A study of Mus musculus with 82 samples.

Results

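Early response transcription factors were followed through stem cell aging, Btaf1 knockdown and the first steps of myeloid differentiation in mouse bone marrow. The group holds 10 genes, taken by symbol from the 55376 genes of the deposited count files: Egr1, Egr2, Egr3, Nr4a1, Nr4a2, Nr4a3, Ier2, Klf2, Klf4 and Klf6. All 10 were listed in every mRNA count file, and Egr2, Egr3, Nr4a3 and Klf4 had no read in some libraries. In the mm10 assembly Egr1 lies at chr18:34859823-34864984 and Ier2 at chr8:84661331-84662852, and no other annotated gene overlapped a member.

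Early response genes are transcribed within minutes of a signal, without new protein synthesis, from promoters that respond to serum response factor and CREB, and their products carry the signal to later genes. EGR proteins are zinc finger activators held in check by the corepressors NAB1 and NAB2, NR4A proteins are orphan nuclear receptors, and Krüppel-like factors (KLF) are zinc finger proteins that bind GC-rich and CACCC elements. In hematopoietic stem cells (HSCs), EGR1 and the NR4A receptors are known for holding cells in quiescence, KLF2 for quiescence and trafficking of lymphocytes and endothelial cells, and KLF4 for monocyte differentiation.

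Libraries of young and old HSCs came from C57BL/6J male mice of 3 to 4 and 24 to 26 months, sorted as Lin-Sca-1+c-kit+CD34-Flk2-CD150+ cells, with 4 young and 8 old mRNA-seq, 4 young and 4 old ATAC-seq, and 2 young and 2 old H3K27ac ChIP-seq libraries. The young mRNA samples were pools of mice and the old ones individual mice, and young and old animals came from different suppliers, so age and colony cannot be told apart. Old HSCs were transduced with a GFP lentivirus carrying a scramble shRNA, shRNA1 or shRNA2, of which the latter pair target the shorter Btaf1 variant, with 2 mRNA libraries for each virus after culture with cytokines and 2 after transplantation into lethally irradiated CD45.1 female recipients, whose marrow was pooled and sorted as CD45.2+ HSCs. Common myeloid progenitors (CMP), granulocyte-macrophage progenitors (GMP) and megakaryocyte-erythroid progenitors (MEP) came from young wild-type mice, with 2 mRNA libraries each. Where the labels do not name separate cultures or animals, p-values measure only the spread between these libraries.

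Each of the 30 mRNA libraries held 20475764 to 42737054 reads on genes. The 8 HSC markers (Procr, Slamf1, Ly6a, Kit, Hlf, Mecom, Fgd5, Ctnnal1) were all detected in HSC libraries, with summed levels of 3008 to 3204 CPM (read counts scaled to the library total) in young and 2886 to 3378 CPM in old HSCs. The 4 granulocyte progenitor markers summed to 71332 to 72011 CPM in GMP and the 6 erythroid markers to 7808 to 8319 CPM in MEP. Btaf1, the targeted gene, was measured here over all its transcripts: it stood at 149 and 153 CPM in cultured control libraries against 117 to 127 CPM with either shRNA, and at 158 and 164 CPM in transplanted control libraries against 116 to 136 CPM, with no overlap in either experiment. In bulk libraries, fewer cells that carry an mRNA and less mRNA per cell cannot be told apart.

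Per kilobase of exon, Ier2, a small nuclear protein of the immediate early class, was the most abundant of the 10 factors in each of the 9 conditions. In young HSCs it stood at 59.7 CPM per kb, ahead of Klf6 at 16.3, Egr1 at 12.2, Nr4a1 at 3.59, Klf2 at 3.29 and Nr4a2 at 1.51 CPM per kb. Egr2, Klf4, Egr3 and Nr4a3 each stayed below 0.2 CPM per kb there. Ier2 made up 61.5% of the summed per-kilobase level of the 10 genes in young HSCs, 58.3% in old HSCs and 89.9% in MEP, where the level of most other members was low. Thus the abundant transcripts of the group came from Ier2, Klf6 and Egr1, and each family had at least 1 nearly silent member in HSCs.

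**Figure D1:**
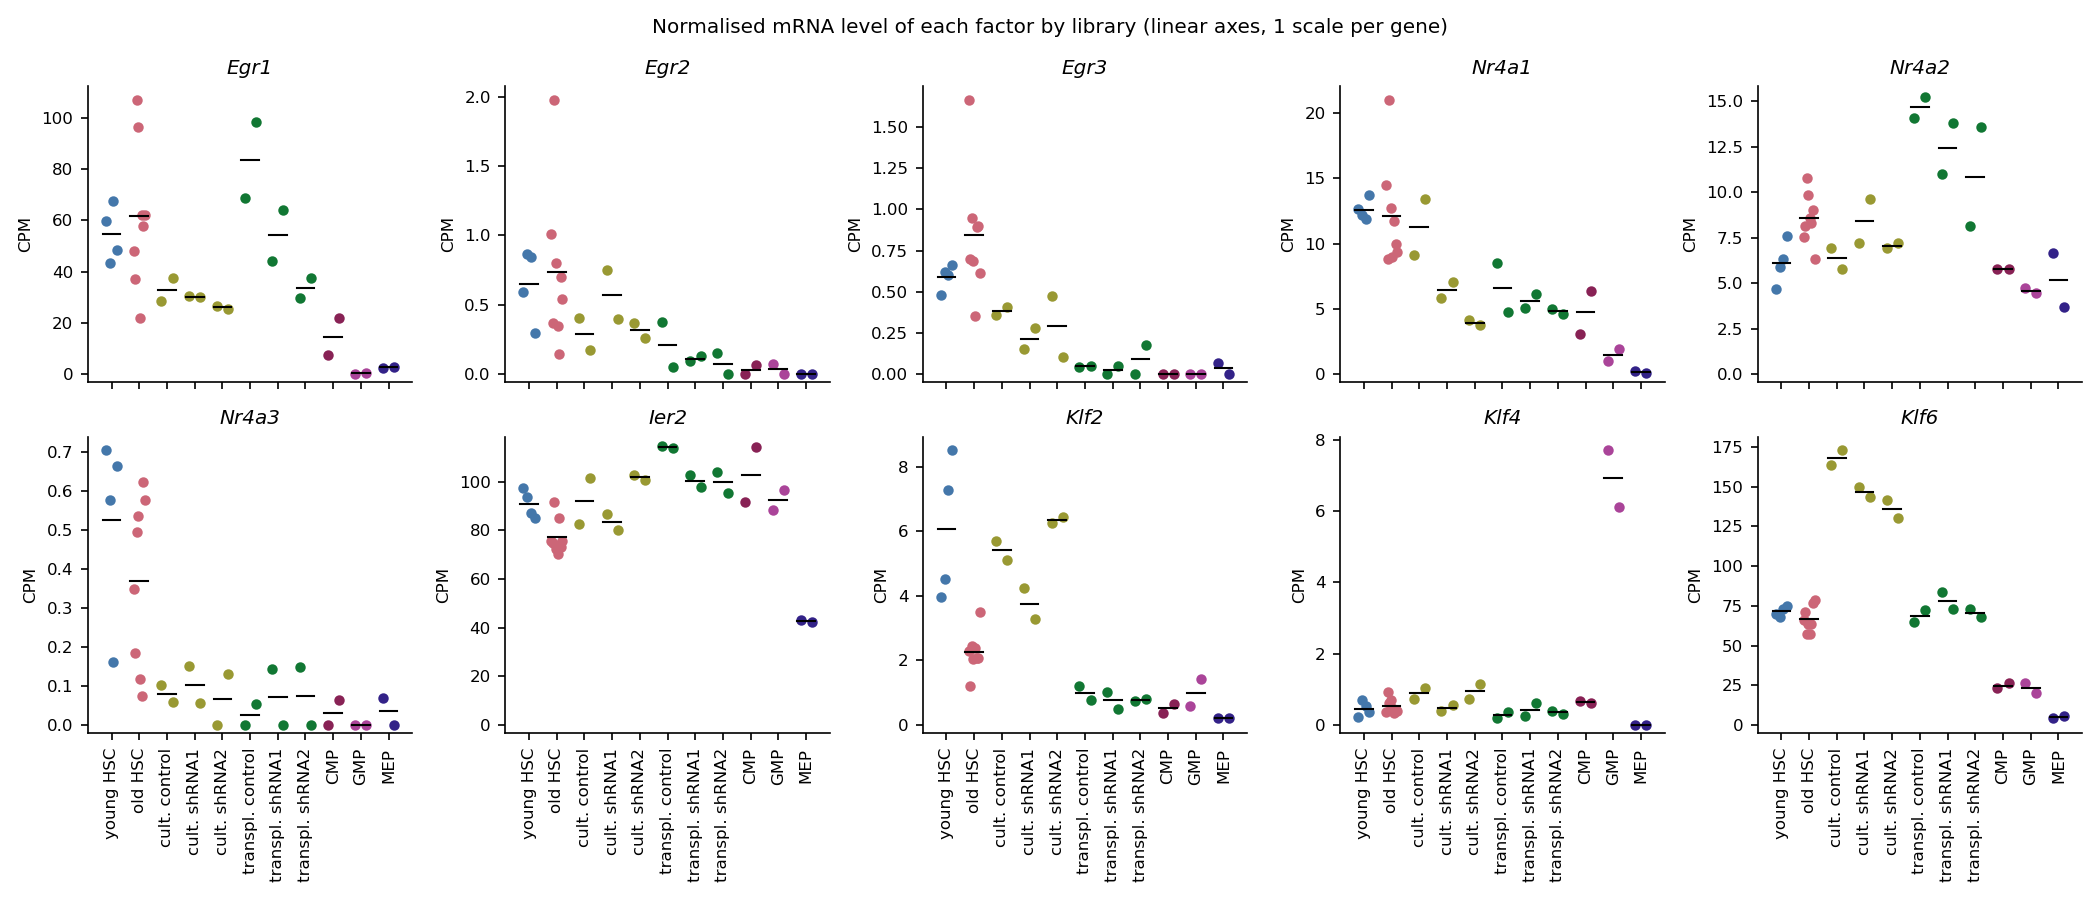
Normalised mRNA level in CPM of each of the 10 factors in all 30 libraries, grouped by condition, with linear axes on a separate scale for each gene. Points are libraries and black bars are group means. Egr1 was lowest in GMP at 0.216 and 0.465 CPM, Klf6 was at 164 and 173 CPM in cultured control HSCs, and Klf4 reached 7.69 and 6.12 CPM in GMP and was at 0 in both MEP libraries.

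Across conditions, Egr1 had its highest mean after transplantation with control virus, at 83.7 CPM ± 20.9 (SD, n = 2), followed by old HSCs at 61.6 CPM ± 28.5 (SD, n = 8) and young HSCs at 54.8 CPM ± 10.9 (SD, n = 4). The libraries of neighbouring conditions in this order overlapped down to cultured knockdown HSCs at 28.2 CPM. CMP at 14.7 CPM, MEP at 2.67 CPM and GMP at 0.340 CPM lay apart, each below every library of the condition above it. Nr4a1 was highest in young HSCs at 12.6 CPM ± 0.789 (SD, n = 4), old HSCs at 12.1 CPM and cultured control HSCs at 11.2 CPM, all overlapping, and lowest in MEP at 0.139 CPM. These order statements are descriptions, since kits and instruments differed between experiments.

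Klf2 had its highest mean in young HSCs at 6.07 CPM ± 2.18 (SD, n = 4), with cultured control at 5.42 CPM and cultured knockdown HSCs at 5.05 CPM overlapping them. Old HSCs followed at 2.25 CPM ± 0.633 (SD, n = 8), and transplanted HSCs, GMP and CMP were at about 1 CPM or below. Klf6, a factor induced by growth and stress signals, had another order: cultured control HSCs at 168 CPM ± 6.56 (SD, n = 2) and cultured knockdown HSCs at 141 CPM ± 8.29 (SD, n = 4) lay above all other conditions, the fresh and transplanted HSCs overlapped between 66.8 and 74.2 CPM, and CMP (24.6 CPM), GMP (23.3 CPM) and MEP (4.93 CPM) were lowest. Ier2 varied little outside MEP, with means from 77.3 CPM in old HSCs to 115 CPM in transplanted control HSCs against 42.8 CPM in MEP. Nr4a2 ran from 14.7 CPM in transplanted control HSCs to 4.58 CPM in GMP. Below this, Egr2, Egr3 and Nr4a3 did not exceed 1.98 CPM in any of the 30 libraries.

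The sequences before the transcript starts of the NR4A genes are shown because CREB and related factors act on these promoters through TGACG, the core of the cAMP response element, and because H3K27ac at 2 of these genes differed with age. At Nr4a2 the peaks that differed were assigned to an inner start outside the printed window. The peak at the printed Nr4a2 start had a ratio of old to young of 1.09 and was not called. RefSeq (GRCm38.p6) gave promoters of 7 members (Egr2, Nr4a1, Nr4a2, Nr4a3, Klf2, Klf4 and Klf6), 11 promoters in all, each running from 250 bases before to 50 bases after a start. The windows printed are the 250 bases before the start, 5′ to 3′ on the gene's strand, in lower case. Capitals mark TGACG or its reverse complement CGTCA. Nr4a1 is at chr15:101266596-101266845 on the plus strand, Nr4a2 at chr2:57124004-57124253 on the minus strand and Nr4a3 at chr4:48045055-48045304 on the plus strand.
Nr4a1: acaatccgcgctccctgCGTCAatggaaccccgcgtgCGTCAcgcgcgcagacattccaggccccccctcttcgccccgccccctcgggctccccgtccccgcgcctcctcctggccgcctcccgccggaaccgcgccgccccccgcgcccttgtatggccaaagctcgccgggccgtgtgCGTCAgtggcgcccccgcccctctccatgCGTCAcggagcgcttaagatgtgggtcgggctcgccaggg
Nr4a2: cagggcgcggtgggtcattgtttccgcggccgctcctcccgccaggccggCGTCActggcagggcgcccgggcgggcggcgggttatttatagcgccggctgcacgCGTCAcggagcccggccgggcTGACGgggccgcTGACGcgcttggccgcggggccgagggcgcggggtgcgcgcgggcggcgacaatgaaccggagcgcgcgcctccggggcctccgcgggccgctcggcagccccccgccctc
Nr4a3: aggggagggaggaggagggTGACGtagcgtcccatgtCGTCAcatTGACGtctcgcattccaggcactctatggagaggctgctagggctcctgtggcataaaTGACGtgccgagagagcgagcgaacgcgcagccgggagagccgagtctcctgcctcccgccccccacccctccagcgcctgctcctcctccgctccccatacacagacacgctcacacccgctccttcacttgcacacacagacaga
Each of the 3 NR4A promoters held 4 copies of TGACG on either strand, at 40 to 233 bases before the start in Nr4a1, 111 to 200 bases in Nr4a2 and 147 to 231 bases in Nr4a3. At least 1 copy was present in 20.8% of the 32851 promoters of the table, and 4 or more copies in 76 promoters, or 0.231%. The full palindrome TGACGTCA, found in 1.79% of all promoters, was in none of the members' promoters.

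The Egr2 window and the Klf2 window show other motifs. For Egr2, capitals mark a CArG box, the binding element of serum response factor, and 2 copies of TGACG or CGTCA in the 130 bases before 1 of its starts, at chr10:67537739-67537868 on the plus strand. For Klf2, at chr8:72318812-72319061 on the plus strand, capitals mark GCGGGGGCG, the element that EGR proteins bind.
Egr2: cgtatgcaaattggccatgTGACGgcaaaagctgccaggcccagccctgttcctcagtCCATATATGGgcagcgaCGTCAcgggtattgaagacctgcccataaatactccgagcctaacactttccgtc
Klf2: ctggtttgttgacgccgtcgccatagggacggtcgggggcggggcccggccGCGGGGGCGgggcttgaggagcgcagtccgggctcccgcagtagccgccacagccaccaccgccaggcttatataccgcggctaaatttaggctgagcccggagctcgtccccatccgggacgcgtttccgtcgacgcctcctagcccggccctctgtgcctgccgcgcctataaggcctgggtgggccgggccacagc
A CArG box was present in 4 promoter windows of Egr2, of which 3 overlap and share 1 site, and in 1.63% of all promoters. GCGGGGGCG was present in promoters of Nr4a1, Klf2 and Klf4, where it started 60, 199 and 194 bases before the start, and in 2.91% of all promoters. GGGCGG, the GC box, was in 8 of the 11 promoters against 35.7% of all, CACCC in 7 of 11 against 57.5%, TATAAA in 1 of 11 against 13.6%, and CAGGAAG in 0 of 11 against 13.3%. Several of the 11 windows belong to Egr2, and 3 of these overlap, so these are not counts of separate genes. GGGCGG and GCGGGGGCG can share letters, and a match of letters is a description of the window.

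To see which of the factors changed as HSCs aged, the 8 old libraries were set against the 4 young ones by edgeR's quasi-likelihood test. Klf2 fell in old HSCs, and none of the other 9 factors passed the threshold of a 1.5-fold change at an adjusted p below 0.05. All 10 members were among the 21522 genes tested, of which 4.69% were called higher and 2.83% lower, beside 0 of 10 and 1 of 10 members. A single call is no result about the group as a whole. The median log2 fold change of the 10 was 0.08, against -0.01 over all genes tested.

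The EGR genes showed no called change with age but a wide spread between old mice. The old libraries were of individual mice and the young ones of pools, so the spreads of the 2 ages cannot be compared. Egr1 was at 59.8, 43.6, 67.6 and 48.4 CPM in the young libraries and ran from 21.8 to 107 CPM in the old ones, with a median of 60.0 CPM. The young values lay inside the old range, and the log2 fold change was 0.19 ± 0.37 (SE). Egr2 had 0.295 to 0.865 CPM in young and 0.149 to 1.98 CPM in old libraries, and Egr3 had 0.482 to 0.664 CPM in young and 0.350 to 1.67 CPM in old libraries, with log2 fold changes of 0.21 and 0.53 and adjusted p of 0.837 and 0.336. Old replicate 3 had the highest Egr1, Egr2, Nr4a1, Nr4a2 and Ier2 of the old libraries, and its 6 monocyte and macrophage markers summed to 68.2 CPM, against 18.3 to 29.8 CPM in the other old libraries. The part of these cells in its values was not tested.

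Among the nuclear receptors, Nr4a1 was at 12.6, 12.2, 11.9 and 13.7 CPM in young libraries and between 8.85 and 21.0 CPM in old ones, with a median of 10.9 CPM. Its groups overlapped and its log2 fold change was -0.03 (adjusted p = 0.948). Nr4a2 was at 4.67, 5.89, 6.31 and 7.60 CPM in young libraries and between 6.35 and 10.8 CPM in old ones, with a median of 8.47 CPM. Most old libraries lay above the young range, and the log2 fold change of 0.51 ± 0.13 (SE) had an adjusted p of 0.00662 but was under 1.5-fold. Without young replicate 4, which had the highest young value, it was 0.63 (adjusted p = 0.00252) and passed both thresholds. Nr4a3 stayed at 0.704 CPM or below at both ages (log2 fold change -0.49, adjusted p = 0.578).

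Ier2 had 85.1 to 97.4 CPM in young and 70.4 to 91.5 CPM in old libraries, with a median of 75.2 CPM in the old. The log2 fold change of -0.21 ± 0.06 (SE) had an adjusted p of 0.0125, at a size below 1.5-fold. Klf6 had 68.0 to 74.8 CPM in young and 57.1 to 78.6 CPM in old libraries (log2 fold change -0.08, adjusted p = 0.595), and Klf4 0.222 to 0.700 CPM in young and 0.335 to 0.922 CPM in old libraries (log2 fold change 0.23, adjusted p = 0.764). Both overlapped between ages.

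Klf2 was at 3.97, 4.53, 7.28 and 8.52 CPM in the 4 young libraries. In the 8 old libraries it ran from 1.22 to 3.50 CPM, with a median of 2.19 CPM. Every old library lay below every young one, the log2 fold change was -1.41 ± 0.22 (SE) and the adjusted p was 5.34e-05. It stayed between -1.57 and -1.20, with adjusted p up to 0.000415, when any 1 of the 12 libraries was left out.

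B cell RNA moved with Klf2 in these libraries, although an antibody to the B cell antigen B220 was part of the lineage gate. The 7 B cell markers (Cd79a, Cd79b, Ms4a1, Ebf1, Pax5, Ighm, Vpreb3) were all detected at both ages, and 5 of the 7 were called lower in old HSCs. Their summed level was 97.9, 102, 194 and 198 CPM in young replicates 1 to 4 and 30.6 to 42.5 CPM in old libraries, apart from old replicate 7 with 173 CPM. The young replicates with the higher sums, 3 and 4, also had the higher Klf2, whereas old replicate 7 had 2.07 CPM of Klf2, within the range of the other old mice. In alternatives chosen after seeing the data, old against young replicates 1 and 2 alone gave a log2 fold change of -0.89 (adjusted p = 0.0138), and a fit with the marker sum as a covariate gave -1.02 (adjusted p = 0.113), which ended the call. Sums of other markers also moved with age. The 4 granulocyte progenitor markers summed to 109 to 134 CPM in young and 251 to 303 CPM in old libraries. The 6 erythroid markers summed to 138 to 201 CPM in young and 37.3 to 171 CPM in old libraries. The part of such cells in the Klf2 values was not tested.

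**Figure D2:**
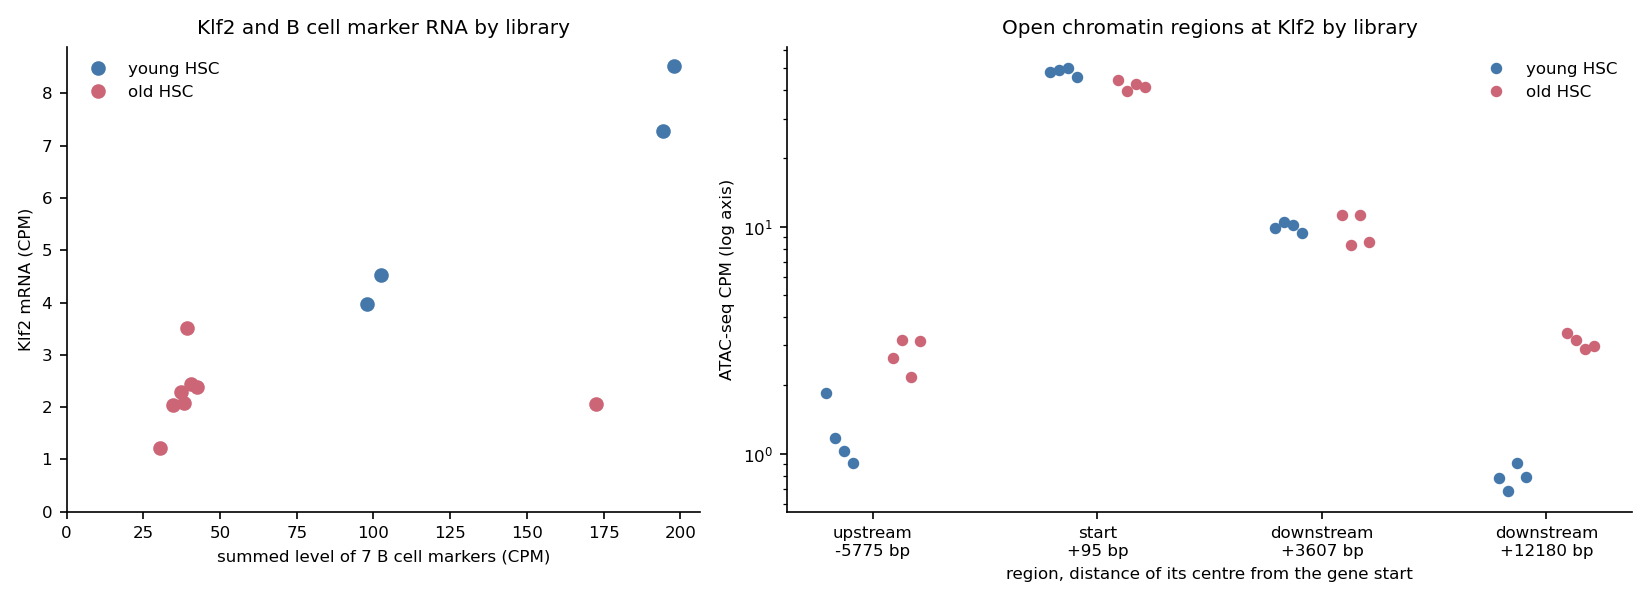
Left, Klf2 mRNA in CPM against the summed CPM of 7 B cell markers in each young and old HSC library, with old replicate 7 at 173 and 2.07 CPM and the other 7 old libraries at marker sums below 50 CPM. Right, CPM on a log axis of the 4 tested ATAC-seq regions within 10 kb of Klf2 in 4 young and 4 old libraries, by the distance of the region's centre from the gene start. The outer regions at 5775 bp upstream and 12180 bp downstream were higher in all old libraries, and the start region was slightly lower.

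Of 5 known KLF2 targets, 2 rose in old HSCs and none fell. They were Thbd, the thrombin receptor thrombomodulin, from 11.2 to 21.4 CPM (log2 fold change 0.95), and Cdkn1a, the cell cycle inhibitor p21, from 3.87 to 6.24 CPM (0.71). S1pr1, Itgb7 and Nos3 were not called. Of 16 other early response genes, 15 were tested, and 2 were higher and 1 lower: Socs3, a feedback inhibitor of cytokine receptors, rose from 10.3 to 44.7 CPM (2.13), Jun, an AP-1 subunit, from 20.2 to 49.7 CPM (1.32), and Dusp1, a MAP kinase phosphatase, fell from 37.6 to 24.3 CPM (-0.61). Of 13 other Egr and Klf genes, 12 were tested and 2 fell, including Klf12 from 32.7 to 21.2 CPM (-0.61). The other was Klf1, the erythroid member, which also stands in the erythroid marker list, whose summed level was 138 to 201 CPM in young and 37.3 to 171 CPM in old libraries. Among 9 genes of ERK feedback 1 fell, Dusp2 from 119 to 69.3 CPM (-0.75), and of 20 signalling and partner genes, including Nab1, Nab2, Srf, the MRTF and ELK cofactors and the ERK kinases, 0 were called by edgeR. All values in parentheses are log2 fold changes, and the medians of the lists lay between -0.17 and 0.53.

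Chromatin accessibility was examined next at the same genes. Of the 50 ATAC-seq regions within 10 kb of a member, 49 were tested, 2 were more open and 2 less open in old HSCs at a 1.5-fold change and an adjusted p below 0.01. Among all 89245 regions tested, 10.1% were more open and 2.9% less open. Both more open regions lay near Klf2 and both less open regions near Nr4a3, and 1 of each pair passed the filter on low counts only through the age at which it was high, so that these counts are no result about the members. None of the 14 regions at transcript starts was called in the main edgeR fit. One of them, at Nr4a1, was called by DESeq2 and in other edgeR fits, as given below.

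The region 5775 bp before the Klf2 start, at chr8:72313008-72313508, had 1.85, 1.17, 1.03 and 0.908 CPM in young and 2.64, 3.19, 2.18 and 3.15 CPM in old libraries. All old libraries lay above all young ones, with a log2 fold change of 1.17 ± 0.24 (SE) and an adjusted p of 7.61e-05. The region centred 12180 bp past the start, at chr8:72330885-72331541, had 0.688 to 0.908 CPM in young and 2.91 to 3.42 CPM in old libraries (log2 fold change 1.96 ± 0.24, adjusted p = 1.33e-09). It passed the filter of 1.5 CPM in 4 libraries only through the old libraries, and leaving out any old library removed it from the test, while the region before the start had 1 young library above that level. The region over the Klf2 start was far more open, at 45.5 to 50.0 CPM in young and 39.9 to 44.3 CPM in old libraries, and its log2 fold change was -0.20 ± 0.05 (SE) with an adjusted p of 0.00229, under 1.5-fold.

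At Nr4a3, the region 8500 bp before the gene start (chr4:48036458-48036849) had 1.70 to 2.62 CPM in young and 1.04 to 1.33 CPM in old libraries, with a log2 fold change of -0.93 and an adjusted p of 0.00201. This region passed the filter only through the young libraries and left the test without any 1 of them. A region in the gene body, at chr4:48051593-48052205, had 5.60 to 6.39 CPM in young and 2.34 to 4.28 CPM in old libraries (-0.79 ± 0.16, adjusted p = 7.18e-05). Neither pair of groups overlapped. At Nr4a1, the region at 173 bp before the annotated gene start had 3.85 to 4.62 CPM in young and 2.26 to 3.37 CPM in old libraries. Its log2 fold change of -0.57 ± 0.17 (SE) was just under 1.5-fold (adjusted p = 0.00717), and the region was called with DESeq2 (-0.60, adjusted p = 0.00654), with no filter on low counts (-0.60) and without old replicate 5 (-0.64) or young replicate 2 (-0.61). A second Nr4a1 start region, near the start of the transcript whose promoter is printed, had 9.10 to 12.9 CPM and 7.39 to 9.49 CPM (log2 fold change -0.43, adjusted p = 0.00207), below 1.5-fold. Egr1 and Egr2 had start regions of 76.5 to 83.6 and 89.6 to 93.0 CPM in young HSCs, against 71.9 to 75.0 and 81.7 to 87.1 CPM in old HSCs. The start region of Klf6 was the most open of all, at 98.5 to 108 CPM in young and 88.0 to 96.3 CPM in old libraries. Of the 14 start regions, 7 had all old libraries below all young ones and 1, at Nr4a2, all old libraries above (58.3 to 60.9 against 62.2 to 66.0 CPM). Of all regions tested, 13.7% had every old library below and 16.2% every old library above every young one.

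**Figure D3:**
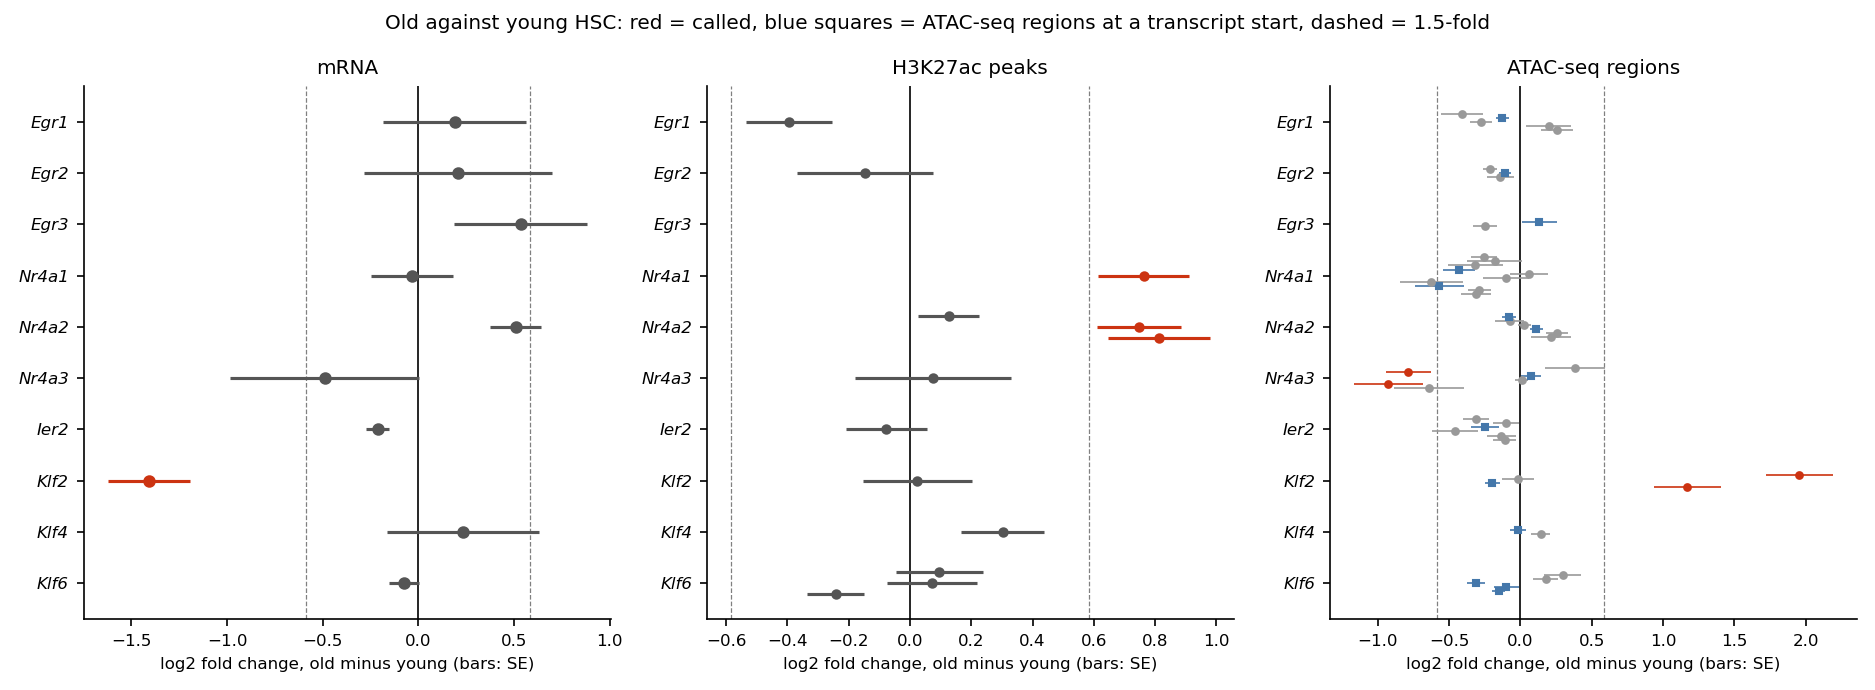
Log2 fold change of old against young HSCs for each factor, with bars giving the SE, in mRNA (left), H3K27ac peaks (middle) and ATAC-seq regions (right). Each point is a gene, peak or region, red marks those called, blue squares are ATAC-seq regions at a transcript start, and dashed lines mark 1.5-fold. Klf2 is the only red point in mRNA, Nr4a1 and Nr4a2 hold the 3 red H3K27ac peaks, and Klf2 and Nr4a3 hold 2 red ATAC-seq regions each, of which the upper one at Klf2 and the lower one at Nr4a3 were tested only because 1 age passed the filter.

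H3K27ac, a mark of active promoters and enhancers, was examined in 13 peaks assigned to 9 of the members, with no peak at Egr3. Peaks were called, with no test, where the ratio of the old to the young mean was above 1.5 and each old library was at least 1.2 times each young one. By this rule 3 of the 13 peaks were higher in old HSCs and 0 lower, against 9.11% and 2.27% of all 39557 peaks. The file placed all 3 near starts of Nr4a1 and Nr4a2. Beside the rule, limma on the log2 signal of all peaks gave 1074 peaks with an adjusted p below 0.05, and the median ratio of all peaks was 1.04.

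The peak over the printed Nr4a1 start, at chr15:101266027-101267613, had a signal of 4.03 and 4.39 in young and 7.04 and 7.36 in old libraries, a ratio of 1.71 (limma adjusted p = 0.00268). At Nr4a2, the peaks at chr2:57114535-57115432 and chr2:57115848-57117520 were assigned by the file to the start of the transcript NM_013613. Their signal rose from 3.01 and 3.50 to 6.15 and 5.43, a ratio of 1.78 (adjusted p = 0.00408), and from 5.26 and 4.95 to 8.37 and 8.90, a ratio of 1.69 (adjusted p = 0.00149). The third Nr4a2 peak, at the upstream start whose sequence is printed, had 12.7 and 13.0 in young and 13.6 and 14.5 in old libraries, a ratio of 1.09. Hence within 1 gene the peaks assigned to the inner start had higher H3K27ac with age, while the ratio at the upstream start was close to the median of all peaks. On the mRNA level the same comparison gave log2 fold changes of -0.03 for Nr4a1 and 0.51 for Nr4a2.

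The other peaks stayed within 1.5-fold. At Egr1 the signal was 7.31 and 6.98 in young and 5.18 and 5.65 in old libraries, a ratio of 0.758 without overlap (limma adjusted p = 0.125). Klf4 had a ratio of 1.24 (adjusted p = 0.238), and the largest of the 3 Klf6 peaks, at its start, a ratio of 0.844 (adjusted p = 0.161). Klf2 had 3.30 and 4.13 in young and 3.59 and 3.92 in old libraries, a ratio of 1.01, so that its start differed neither in H3K27ac by the rule nor in accessibility by 1.5-fold, beside the lower mRNA. Ier2, Egr2 and Nr4a3 had ratios of 0.948, 0.896 and 1.07.

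**Figure D4:**
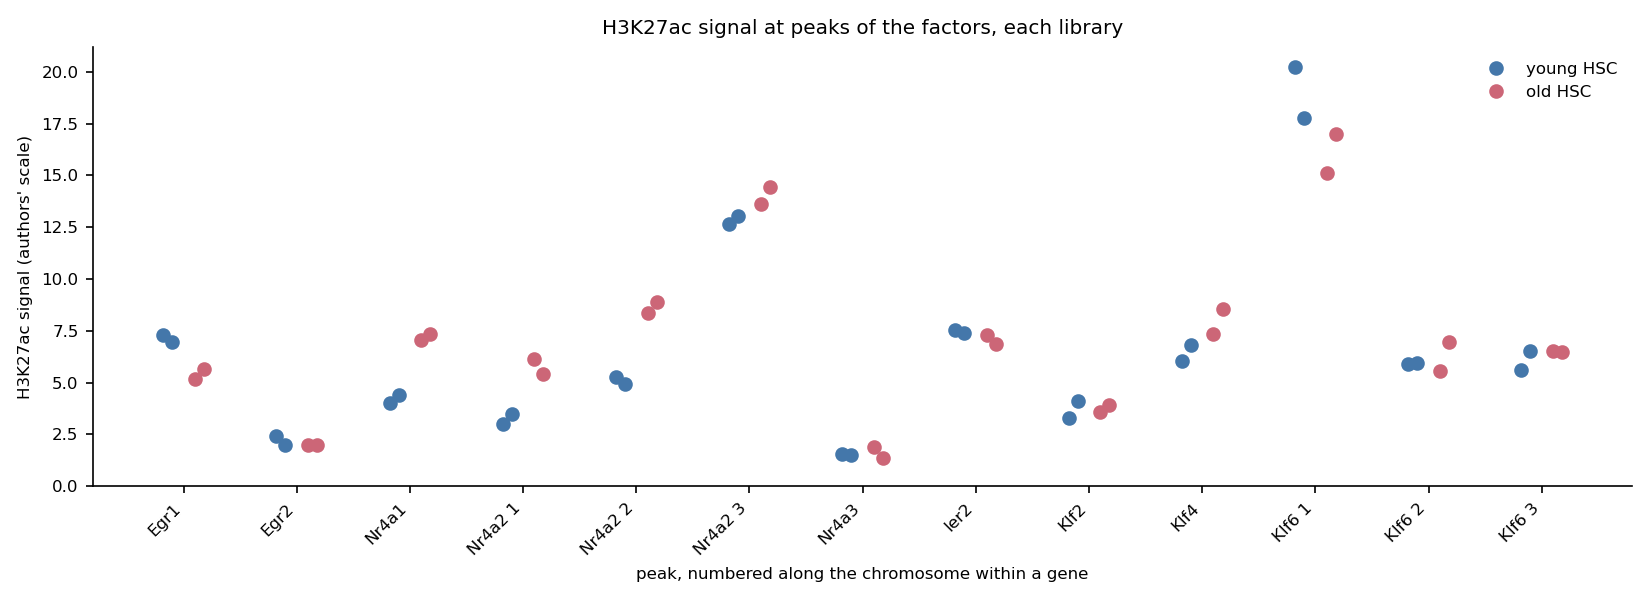
H3K27ac signal, on the authors' scale, of the 13 peaks assigned to the factors in 2 young (blue) and 2 old (red) libraries, with peaks of a gene numbered along the chromosome. The peak of Nr4a1 and the first 2 peaks of Nr4a2 are higher in both old libraries, with ratios of 1.69 to 1.78, and the first Klf6 peak is the highest signal of all.

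In young HSCs, H3K4me3, the mark of transcription start sites, was present at all 10 genes, whereas the repressive mark H3K27me3 covered a subset. H3K4me3 peaks at Ier2 and Klf6 had a signal of 34.7 and 29.6, above 99.8% and 98.5% of the 33199 peaks. The peak of Egr1 (20.7) and the highest peaks of Nr4a3 (23.6) and Nr4a2 (23.1) were above 84.7% to 91.0%. Further peaks were lower, at 18.8 for Nr4a2 and at 16.3 and 9.73 for Nr4a3. H3K27me3 domains lay at Egr2, Egr3, Nr4a2, Nr4a3, Klf2 and Klf4, and none at Egr1, Nr4a1, Ier2 or Klf6. The domains at Egr2, Egr3, Nr4a2 and Klf2 had signals of 1.47 to 1.98, above at least 99.3% of the 55820 domains. The domain over the Nr4a3 start had a signal of 1.10 and that of Klf4 0.504, above 98.1% and 83.4% of the domains. The 4 lowest genes of the group in young HSCs, Egr2, Egr3, Nr4a3 and Klf4, were all among the 6 with both marks. So were Nr4a2 and Klf2, at 1.51 and 3.29 CPM per kb. The share of all genes with both marks was not counted, and a link of the marks to the level was not tested. Domains of H3K36me3, the mark of transcribed gene bodies, came from a table that names no sample, age or cell type. They were listed over 7 of the genes, with only 189 bases of Egr2 covered, and not over Egr3, Ier2 and Klf2.

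The knockdown of the shorter Btaf1 variant in old HSCs was compared with control virus separately in culture and after transplantation, with genes called at a 1.5-fold change and an unadjusted p below 0.05. In cultured HSCs Nr4a1 fell, and it was the only one called of the 9 members tested, against a background of 0.972% lower and 2.45% higher among 19763 genes. Nr4a1 was at 9.09 and 13.4 CPM in control libraries, 5.83 and 7.08 CPM with shRNA1, and 4.14 and 3.75 CPM with shRNA2. All 4 knockdown libraries lay below both controls, and the log2 fold change was -1.11 ± 0.26 (SE), with an adjusted p of 0.0636. DESeq2 gave an adjusted p of 0.000251, edgeR with no filter on low counts 1.79e-10, and edgeR with shRNA1 or shRNA2 alone 0.00431 or 3.65e-06, and over all alternatives the adjusted p reached 0.382, without control replicate 2. Because all 4 knockdown libraries lay below both controls, the two-sided exact permutation test of the log2 values could only give p = 0.133. This is the smallest that the design of 4 against 2 allows, and it adds nothing to the lack of overlap. With shRNA1 or shRNA2 alone the log2 fold change was -0.80 or -1.51. With 1 library left out it lay between -1.37 and -0.80, and the call was kept each time.

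Klf6 had 164 and 173 CPM in cultured controls and 150, 143, 142 and 130 CPM in knockdown libraries, without overlap. The log2 fold change of -0.26 ± 0.06 (SE) had an adjusted p of 0.0189, at a size below 1.5-fold. Egr1 had 28.5 and 37.5 CPM in controls and 25.6 to 30.6 CPM in knockdown libraries (-0.23, adjusted p = 0.359), which overlapped. Klf2 was at 5.72 and 5.12 CPM in controls, 4.25 and 3.27 CPM with shRNA1, and 6.26 and 6.44 CPM with shRNA2. Both shRNA1 libraries lay below the controls and both shRNA2 libraries above them, so the joint log2 fold change of -0.10 averaged opposite values. Ier2, Nr4a2, Klf4, Egr2 and Egr3 overlapped with the controls, with adjusted p from 0.468 to 0.986, and Nr4a3 was below the filter on low counts.

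In transplanted HSCs Egr1 fell and was the only one called of the 7 members tested, against a background of 0.811% lower and 1.43% higher among 20350 genes. It was at 68.9 and 98.5 CPM with control virus, 44.3 and 64.0 CPM with shRNA1, and 29.8 and 37.7 CPM with shRNA2. All knockdown libraries lay below both controls, with a log2 fold change of -0.93 ± 0.28 (SE) and an adjusted p of 0.852. For the same reason as in culture, the exact permutation test could only give p = 0.133. Without control replicate 2 the log2 fold change was -0.65 and Egr1 was no longer called. With no filter on low counts it was -0.94 and Egr1 was not called either. Ier2 had 115 and 114 CPM in controls and 95.4 to 104 CPM in knockdown libraries (-0.20, adjusted p = 0.852), and Nr4a2 14.1 and 15.3 CPM against 8.14 to 13.8 CPM (-0.34, adjusted p = 0.928), both without overlap and below 1.5-fold. In neither knockdown experiment was the share of all genes without overlap counted. Nr4a1 overlapped, with 8.50 and 4.77 CPM in controls and 4.62 to 6.16 CPM in knockdown libraries. Its log2 fold change was -0.35, and it depended on the control library: -0.71 without control replicate 2 and 0.13 without control replicate 1.

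The difference between the 2 experiments was tested directly in a model chosen after seeing the data. The knockdown effect in culture minus that after transplantation was 0.70 on the log2 scale for Egr1 (adjusted p = 0.652) and -0.76 for Nr4a1 (adjusted p = 0.624). Of the members, Klf6 had the lowest adjusted p (-0.37, adjusted p = 0.290). None of the 9 members tested had an adjusted p below 0.05, which 45 of 21443 genes reached. The effects on Egr1 and Nr4a1 are thus not shown to differ between culture and transplantation.

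**Figure D5:**
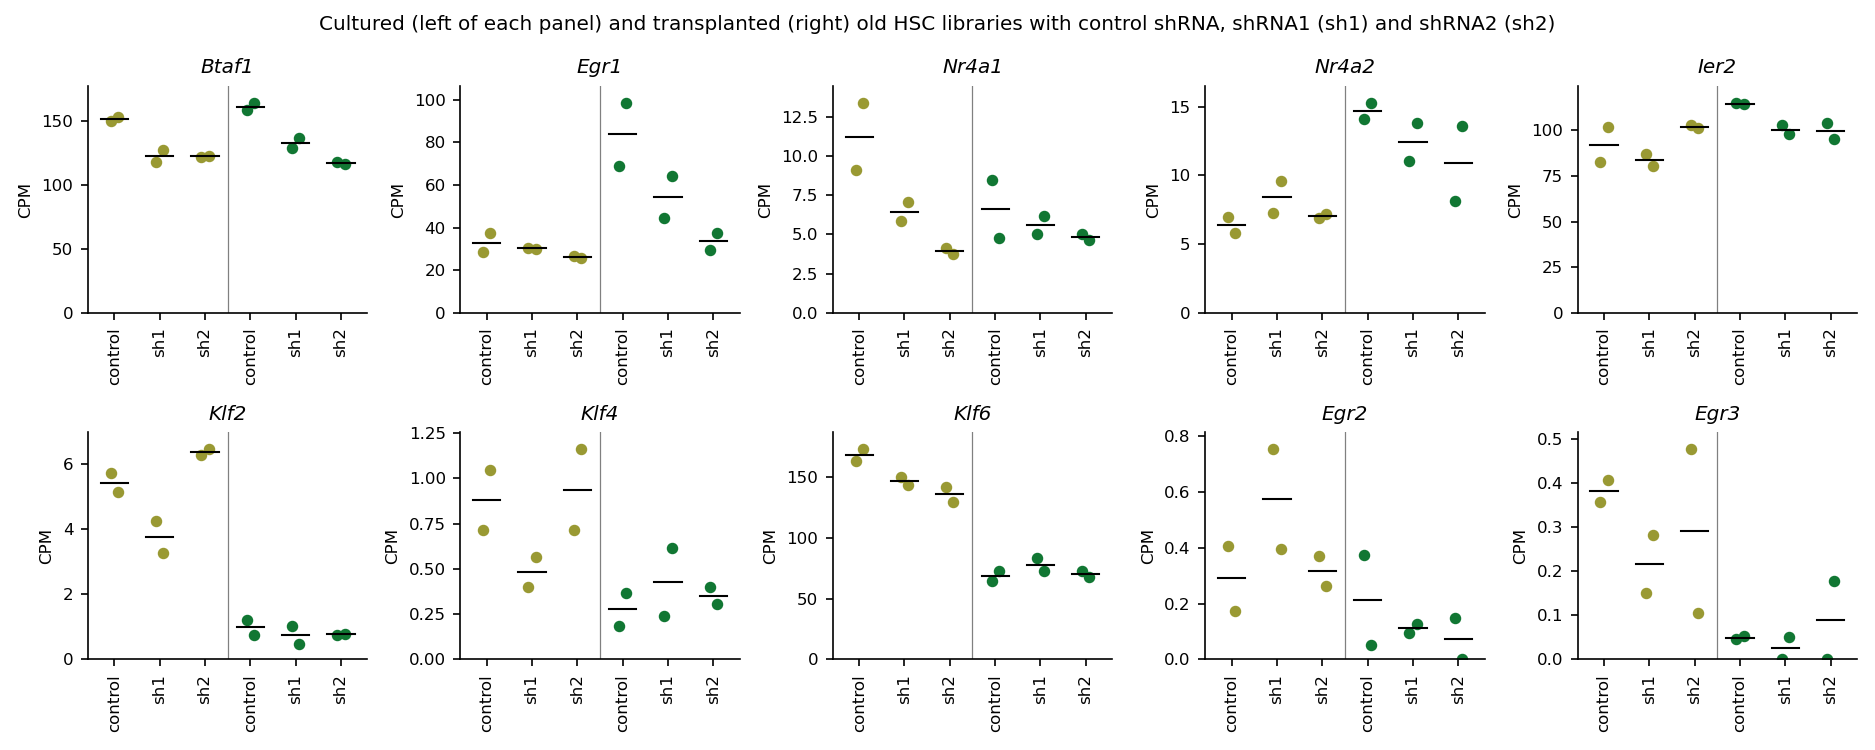
CPM of Btaf1 and of 9 of the factors in old HSCs with control shRNA, shRNA1 (sh1) or shRNA2 (sh2), cultured libraries left and transplanted libraries right of the grey line, with 2 libraries for each virus and black bars for the means. Nr4a1 in culture and Egr1 after transplantation are below both controls in all 4 knockdown libraries, and Klf2 in culture lies below the controls with sh1 and above them with sh2.

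Among the other lists, 1 of the 5 known KLF2 targets rose and 1 fell in culture. Itgb7, an integrin subunit, rose from 16.1 to 25.6 CPM (log2 fold change 0.67, adjusted p = 0.0198), while Thbd fell from 14.8 to 9.13 CPM (-0.70, adjusted p = 0.00355). After transplantation 0 of the 5 were called. The other early response genes, other family members, signalling genes and ERK feedback genes had 0 called members in either experiment by edgeR, at an unadjusted p below 0.05 and 1.5-fold.

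Cultured and transplanted control HSCs carried the same virus. The labels give both the same extraction and library kit, whereas the study's methods name another extraction and kit for transplanted HSCs, so environment and preparation cannot be told apart. The HSC markers moved too: 5 of the 8 were called lower and 1 higher in culture, and they summed to 1569 and 1587 CPM in cultured against 2838 and 2937 CPM in transplanted controls, whose part in the values below was not tested. Of the 9 members tested, 4 were higher and 2 lower in culture, against 12.6% higher and 15.2% lower among 19518 genes. Egr3 passed the filter on low counts only through the cultured libraries, so that these counts are no result about the members. Klf6 was at 164 and 173 CPM in culture and 64.5 and 72.5 CPM after transplantation, a log2 fold change of 1.30 ± 0.07 (SE) with an adjusted p of 1.75e-06. Klf2 was at 5.72 and 5.12 against 1.21 and 0.764 CPM (2.45 ± 0.29, adjusted p = 0.000180). Egr1 went the other way, with 28.5 and 37.5 CPM in culture and 68.9 and 98.5 CPM after transplantation (-1.34 ± 0.21, adjusted p = 0.00320), and so did Nr4a2 with 6.94 and 5.79 against 14.1 and 15.3 CPM (-1.20 ± 0.16, adjusted p = 0.000324).

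Klf4, at 0.715 and 1.05 against 0.187 and 0.369 CPM (1.67, adjusted p = 0.0408), and Egr3, at 0.357 and 0.407 against 0.0467 and 0.0527 CPM (2.87, adjusted p = 0.0197), were also called. Both calls were lost with DESeq2 (adjusted p of 0.126 and 0.106). The Egr3 call was also lost without any 1 of the 4 libraries, and the Klf4 call without either cultured library or transplanted replicate 1. Nr4a1, at 9.09 and 13.4 against 8.50 and 4.77 CPM, had an adjusted p of 0.0680. It was called higher in culture with DESeq2 (0.77, adjusted p = 0.0256), with no filter on low counts (0.76, adjusted p = 0.000376) and without transplanted replicate 1 (1.24, adjusted p = 8.52e-05). Of 15 other early response genes tested, 6 were higher and 0 lower, and Atf3 was at 0 in both transplanted libraries and 4.20 CPM in culture. Klf10, another Krüppel-like factor, was lower in culture at 112 against 308 CPM (-1.46), and Dusp6, the ERK phosphatase, at 27.7 against 145 CPM (-2.39).

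The myeloid progenitors were compared with each other in 1 fit of 18234 genes, in which 7 members were tested and the comparisons share libraries. From CMP to MEP 5 of the 7 members fell and none rose, with 29.2% of genes lower and 17.5% higher. Klf6 went from 23.1 and 26.2 to 4.20 and 5.65 CPM (log2 fold change -2.33 ± 0.19, adjusted p = 1.24e-07), Nr4a1 from 3.11 and 6.34 to 0.208 and 0.0698 CPM (-5.06 ± 0.59, adjusted p = 7.46e-06), and Ier2 from 91.8 and 114 to 43.0 and 42.5 CPM (-1.28 ± 0.10, adjusted p = 1.64e-07). Egr1 went from 7.47 and 21.8 to 2.33 and 3.00 CPM (-2.47 ± 0.55, adjusted p = 0.00742), a call that was lost without either MEP library (adjusted p of 0.105 and 0.0759). Klf4 was at 0.685 and 0.627 CPM in CMP and had no read in MEP, at least 6.28-fold lower against a floor of 3 counts in each MEP library. In the shRNA and progenitor libraries 72.1% to 77.3% of gene counts from 1 to 10 were even numbers, against 38.7% to 43.5% in the young and old HSC libraries, and with a floor of 6 counts in each library the bound is 3.14-fold. Nr4a2 had 5.79 and 5.80 CPM in CMP and 6.64 and 3.70 CPM in MEP, which overlapped (-0.18), and it was called lower without MEP replicate 1 (-0.67, adjusted p = 0.0497).

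From CMP to GMP 1 of the 7 rose and 2 fell, with 6.24% of genes higher and 10.5% lower. Klf4 rose from 0.685 and 0.627 to 7.69 and 6.12 CPM (3.42 ± 0.33, adjusted p = 8.13e-06). Of the 6 monocyte and macrophage markers 1 was called higher in GMP, with sums of 521 to 599 CPM against 421 to 459 CPM in CMP, and all 4 granulocyte progenitor markers were, with sums of 71332 to 72011 against 17790 to 21735 CPM. The part of these cells in the Klf4 level was not tested. Egr1 was at 0.216 and 0.465 CPM in GMP, with 6 and 12 reads (-5.40 ± 0.73, adjusted p = 0.00190), and Nr4a1 at 1.01 and 1.94 CPM (-1.65 ± 0.43, adjusted p = 0.00995). Without GMP replicate 1 neither Egr1 (adjusted p = 0.0547) nor Nr4a1 (0.0835) was called, and without CMP replicate 2 Nr4a1 was not (0.177). Klf6 and Ier2 overlapped between CMP and GMP.

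Between MEP and GMP, 1 of the 7 was higher and 5 lower in MEP, with 16.6% of genes higher and 27.2% lower. Klf4 was at least 66.1-fold lower in MEP by the same floor of 3 counts in each library (33.0-fold with 6), and Klf6 (-2.29), Nr4a1 (-3.40), Ier2 (-1.16) and Klf2 (-2.28, adjusted p = 0.0121) were lower, while Egr1 was higher (2.92, adjusted p = 0.0208). The Egr1 call was lost when any 1 of the 4 libraries was left out (adjusted p from 0.103 to 0.186), and the Klf2 call, which rests on 6 reads in each MEP library, without GMP replicate 2, MEP replicate 1 or MEP replicate 2 (0.190, 0.0520 and 0.0532). Of 10 further Egr and Klf genes tested, 6 were higher and 1 lower in MEP, with Klf3 at 212 against 33.5 CPM (2.61) and Klf5 at 11.3 against 1.97 CPM (2.46). Of the 14 other early response genes 2 were higher and 6 lower, with Fos at 0.105 against 10.3 CPM and Gadd45b at 0.174 against 28.4 CPM. The signalling list had 2 higher and 11 lower of 20, including the MADS box factor Mef2c at 16.3 against 114 CPM (-2.85) and the ETS factor Elk3 at 3.80 against 78.2 CPM (-4.41).

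The HSC and CMP libraries differed in the share of even counts given above, so cell type and the making of the counts cannot be told apart. In CMP 7 of the 10 members were lower and 0 higher, with 42.8% of 25716 genes lower and 21.6% higher. Egr2, Egr3 and Nr4a3 passed the filter on low counts only through the young HSC libraries, so that this count is no result about the members. The median of all genes was -0.49 on the log2 scale with TMM and -0.61 with size factors. Relative to that median Klf2 was lower by -3.07, Egr1 by -1.43, Klf6 by -1.06 and Nr4a1 by -0.94. The unshifted log2 fold change of Egr1 was -1.91 and ran from -2.88 to -1.33 with 1 library left out. That of Nr4a1 was -1.42 and ran from -2.02 to -0.99. Klf2 was at 3.97 to 8.52 CPM in young HSCs and 0.373 and 0.659 CPM in CMP (unshifted log2 fold change -3.56 ± 0.42, adjusted p = 4.15e-07). Egr3 had no read in either CMP library, at least 6.31-fold lower against 3 counts in each library (3.15-fold with 6). With 2 reads over both CMP libraries, the ratio of CMP to HSC was 0.0489 for Egr2 (95% counting interval 0.00580 to 0.184) and 0.0586 for Nr4a3 (0.00693 to 0.222). If these 2 reads were 1 fragment, the upper limits would be 0.282 and 0.34. Ier2, Nr4a2 and Klf4 were not called, with 0.66, 0.40 and 1.02 relative to the median. Of the 9 ERK feedback genes, 7 were lower in CMP, including Dusp4 at 0.282 against 25.3 CPM, and Nab2, the EGR corepressor, was at 8.39 against 44.3 CPM (-2.41).

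Finally, genes with the most similar pattern over the 9 conditions were sought among 18411 genes with a mean over 1 CPM in at least 1 condition, by Pearson's r of log2(mean CPM + 0.5). The conditions share libraries, kits and cell sources, so r describes these 9 points. Egr1 was most like Osbpl1a (0.990), Trp53inp1 (0.988), Gm49785, Mir1931 (both 0.984) and Dyrk1b (0.983). Nr4a1 was most like Gm29017 (0.985), Zfp711 (0.978), Nfkb2 (0.976), Snn (0.971) and Gm48512 (0.970), and Klf2 most like Gm2415 (0.971), Lrrc75aos2 (0.963), Gpc6 (0.961), Bcorl1 (0.955) and Ccdc80 (0.954). Among the 7 members with a mean over 1 CPM in at least 1 condition (not Egr2, Egr3 and Nr4a3), the highest r was 0.86, between Nr4a1 and Klf6, followed by 0.81 between Egr1 and Nr4a1 and 0.79 between Klf2 and Klf6. Klf4 had r of -0.58 with Egr1.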

How the data were processed

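For mRNA-seq, raw counts per gene were deposited, which the authors had made with STAR (mm10) and featureCounts on GENCODE M22 after trimming. How strand and multiple alignments were handled in counting is not given in the sources at hand. ATAC-seq reads were processed by the authors, who aligned them with BWA, removed duplicates and blacklisted regions, and deposited raw counts for 127695 consensus regions called with MACS. For H3K27ac, H3K4me3 and H3K27me3 the deposited values are signal per peak, after the authors had brought each library to a fixed read number. Columns of fold change (old to young, linear and log2) hold the authors' own comparison and were not used. The H3K36me3 table gives only places of domains. In total 8 per-sample value columns were not used, because they match no listed sample (ATAC-seq of 4 old samples and the old columns of H3K4me3 and H3K27me3), and 92 spike-in features were left out. ATAC-seq and ChIP-seq of other cells, Hi-C and transposable elements were not analysed here. Histone peaks were taken by the gene name the files give.

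Members and lists were chosen with earlier results of these data known, and 2 genes of the lists are not reported here. Counts were scaled by TMM after a filter with filterByExpr (ATAC-seq: over 1.5 CPM in at least 4 libraries) and compared with edgeR 4.0.16, robust quasi-likelihood test, two-sided, with Benjamini-Hochberg adjustment over all features tested, in R 4.3.3. limma 3.58.1 was run on log2(H3K27ac signal + 0.1), so its fold changes are on that scale. Levels are CPM with TMM over all 30 mRNA libraries, and SE is that of edgeR's fit. Likeness used log2(mean CPM + 0.5). Tables and figures were made with matplotlib 3.10.9, pandas 2.3.3, scipy 1.17.1 and numpy 2.4.6 in Python 3.11.15. Transcript starts for regions took 1000 bp before to 100 bp after a start. The fits were tested on simulated data. Libraries were compared by their counts, and 0 pairs were duplicates.

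mRNA libraries held 20475764 to 42737054 reads on genes and ATAC-seq libraries 15427933 to 26260337 reads on regions. The floor of 3 counts in each library and the 95% intervals cover counting error only, since reads carry no molecular identifiers. Even numbers made up 72.1% to 77.3% of counts from 1 to 10 in the 18 shRNA and progenitor libraries, so 1 fragment may have been counted more than once there, and bounds are also given for 6 counts.

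Named are all 10 members, of each list up to 3 called genes a direction with the largest change in each comparison, and the 5 genes most like Egr1, Nr4a1 and Klf2. Same-numbered libraries were not treated as pairs: the correlation of their deviations lay between -0.123 and 0.0599 for young and old mRNA and reached 0.139 and 0.156 in groups with 2 pairs (transplanted control and shRNA1, CMP and GMP), and no label ties them. Alternatives were DESeq2 1.42.0, its size factors, no filter on low counts, the replicate number as a block, each shRNA alone, other thresholds and scalings, and leaving out each library. The interaction of knockdown and experiment, both B cell alternatives and the exact permutation tests of Nr4a1 and Egr1 were chosen after seeing the data. A planned comparison of protein sequences was not made.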

Additional observations from a re-analysis of the deposited data

Results flagged for a closer look

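Of 118 groups of 4 to 10 values tested, 6 had a highest or lowest library far from its neighbour by Dixon's criterion, and chance flags about 1 in 20 such groups. In old HSCs, Egr2 reached 1.98 CPM in replicate 3 against 1.01 CPM in the next library, Egr3 reached 1.67 CPM in replicate 1 against 0.951 CPM, and Nr4a1 reached 21.0 CPM in replicate 3 against 14.5 CPM. In ATAC-seq, the Egr1 region 5173 bp before the gene start had 3.03 CPM in its lowest young library against 3.83 CPM in the next, the Nr4a1 gene body region at 8442 bp had 6.10 CPM in its lowest old library against 7.67 CPM, and the Nr4a3 gene body region at 31731 bp had 1.38 CPM in its lowest young library against 2.13 CPM. None of these 6 genes or regions was called between ages.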

How the results depend on the processing

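Of 544 values of single members, regions and peaks under settings other than leaving out a library, 515 kept their direction and side of the threshold, as did 849 of 910 with a library left out. Between ages, 1 member was called higher (Nr4a2) with the replicate block, with young replicates 1 and 2 alone and with the B cell covariate, and 0 lower with that covariate. Values that changed sign there were Nr4a1 with the replicate block (0.14) and Klf4 (-0.082) and Klf6 (0.078) with the B cell covariate. The same-numbered libraries are not pairs, and with the block Nr4a2 reversed to 0.11 between CMP and HSC and Egr1 was no longer called there. The block changed no other call. At 1.5-fold and an adjusted p below 0.05 in the main edgeR fits, 0 members were lower after knockdown in culture and 0 after transplantation. Nr4a1 in culture passed in other edgeR fits, as given above. With no filter on low counts, 0 members were lower after transplantation at 1.5-fold and an unadjusted p below 0.05. In culture Ier2 was -0.14 with shRNA1 alone, and Klf2 0.22 and Klf4 0.092 with shRNA2 alone. The Nr4a3 region at 1889 bp upstream was -0.018 with DESeq2 and -0.019 with no filter. With H3K27ac libraries at the same median the ratios of Klf2 (0.938) and 2 Klf6 peaks (0.988 and 0.993) passed below 1, and 0 peaks were called above 2-fold. The causes were not tested.

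With 1 library left out (a lone library is then assumed to vary like the others), log2 fold changes that crossed 0 were Egr2 (-0.18 to 0.38) and Nr4a1 (-0.19 to 0.023) with age, Ier2 (-0.13 to 0.17) and Klf2 (-0.24 to 0.056) in cultured knockdown, Nr4a1 (-0.71 to 0.13) and Klf2 (-0.67 to 0.0026) in transplanted knockdown, Egr2 (-0.34 to 2.41) between controls, Nr4a2 (-0.67 to 0.17) from CMP to MEP, Ier2 (-0.28 to 0.043) and Klf6 (-0.26 to 0.13) from CMP to GMP, Nr4a2 (-0.37 to 0.48) between MEP and GMP, and Nr4a2 (-0.20 to 0.032) between CMP and HSC. So did the ATAC-seq regions at 8442 bp of Nr4a1 (-0.035 to 0.17), 1889 bp before Nr4a3 (-0.0093 to 0.041), 3607 bp of Klf2 (-0.082 to 0.068) and the Klf4 start (-0.037 to 0.015). H3K27ac ratios that crossed 1 were those of Nr4a3 (0.890 to 1.25), Klf2 (0.909 to 1.14) and 2 Klf6 peaks (0.938 to 1.18 and 0.992 to 1.15). Counts of called members ran from 0 to 1 higher with age, 2 to 3 higher in culture, 0 to 2 lower in GMP and 4 to 5 lower in MEP against CMP, and 0 to 1 higher and 4 to 5 lower in MEP against GMP, and counts of regions from 1 to 2 more open and 1 to 3 less open.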
